A study of Mus musculus with 6 samples.

Results

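The miR-130 and miR-301 family is represented here by miR-130a-3p, miR-130b-3p and miR-301a-3p. They were chosen by the accession of the mature miRNA (MIMAT0000141, MIMAT0000387 and MIMAT0000379), and all 3 were found among the 707 mature miRNAs counted. Small RNA was sequenced from white adipose tissue (WAT) of male ApoE-/- mice, which lack apolipoprotein E and develop high blood cholesterol. The mice of the CIH group (3 libraries) were kept for 8 weeks under chronic intermittent hypoxia, as a model of the hypoxia of obstructive sleep apnea. The cycles were 60 s of falling and 60 s of rising oxygen between 21% and about 6% in the inspired air. The mice of the control group (3 libraries) carried the same ApoE deficiency. The age of the mice, the fat depot and the air given to the control mice are not given in the sources used here, and no mice with intact ApoE were included. The labels name separate replicates without saying how the tissue was sampled or whether each library is a single mouse. The p-values therefore measure the spread between these 6 libraries.

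A miRNA guides a silencing complex to mRNAs that pair with its seed, the bases 2 to 8 from the 5′ end, and lowers the output of those mRNAs. The family is known for repressing Pparg, which encodes PPARγ, the transcription factor that drives adipocyte differentiation and lipid storage. Raising miR-130a or miR-130b in preadipocytes is known to reduce adipogenesis. No mRNA or protein was measured in these libraries, so the repression of Pparg is background and was not examined.

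The mature sequences, taken from RefSeq on GRCm38.p6, are shown because the members share a seed and differ only in the bases after it, which decide the miRNA that a read is counted for. The seed is in capitals.
miR-130a-3p: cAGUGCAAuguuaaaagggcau
miR-130b-3p: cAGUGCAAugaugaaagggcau
miR-301a-3p: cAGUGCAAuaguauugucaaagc

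With positions counted from 1 at the 5′ end and miR-130a-3p as the reference, miR-130b-3p differed by the substitutions U11A and A13G and was identical at the other 20 of 22 positions. miR-301a-3p shared its first 9 bases with both, and 12 of its first 22 positions were identical to miR-130a-3p. Of the 1679 mature mouse sequences in the RefSeq table, 7 had this seed. A relative by name, miR-301b-3p, is not among these 7, so the table may not hold the whole family. Among those that are not members, miR-6389 had the longest start in common with a member, its first 15 bases with miR-130a-3p.
miR-6389: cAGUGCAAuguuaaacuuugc

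Among the sequences of the RefSeq table only, a read from the 5′ end was particular to miR-130a-3p after 16 bases, to miR-130b-3p after 13 and to miR-301a-3p after 10. Each mature sequence was found in 1 of the 1005 hairpins of the table, so none comes from more than a single locus there. No other row of the counts had the same 6 values as a member.

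The loci lie on different chromosomes. Mature miR-130a-3p is at chr2:84741116-84741137 (minus strand), in the hairpin Mir130a, which lies in no annotated host gene of GENCODE release M21. Mature miR-130b-3p is at chr16:17124071-17124092 (minus strand). Its hairpin Mir130b lies in an intron of the protein-coding gene 2610318N02Rik, on the strand of that gene, and the hairpin Mir301b lies 257 bases away on the same strand. Mature miR-301a-3p is at chr11:87113054-87113076 (plus strand). Its hairpin Mir301 lies in an intron of Ska2, a gene of chromosome segregation at mitosis, again on the strand of its host. The mRNAs of both hosts are outside what small RNA libraries measure, and products of Mir301b are not analysed here.

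The libraries held between 636963 and 4783768 counts, and the deepest was control 2. Libraries were compared on log2 TMM-normalized CPM of the 633 miRNAs tested. These are counts scaled to a common library total adjusted by TMM factors, with a prior count of 2. Control 3 correlated with the CIH libraries at 0.958 to 0.974, and with control 1 and control 2 at 0.595 and 0.661. Control 1 and control 2 correlated with each other at 0.831. The points of these correlations are miRNAs of the same libraries and no independent replicates. Control 3 therefore stood with the CIH libraries and apart from its own group, and values without it are given beside each difference between the groups. The miRNAs with any count numbered 487, 552 and 636 in control 1, 2 and 3, and 640, 631 and 649 in CIH 1, 2 and 3. Control 1 and control 2 thus had the fewest miRNAs detected, although control 2 was the deepest. The cause was not tested. Levels below are TMM-normalized CPM without a prior count.

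miR-130a-3p had the most reads of the 3 members in each of the 6 libraries. Its raw counts were 58, 1071 and 45 in control 1, 2 and 3, and 100, 44 and 47 in CIH 1, 2 and 3. Its normalized levels were 73.8, 258 and 40.6 CPM in the control group against 80.3, 47.5 and 51.0 CPM under CIH. Control 2 stood far above the other 5 libraries, and control 1 and control 3 lay on either side of CIH 2 and CIH 3, so the groups overlapped. The place of control 1 depended on the scaling, with a TMM factor of 0.5752 against 1.399 in control 3. Scaled by library totals only, the levels were 42.5, 224 and 56.8 CPM in control 1, 2 and 3. Those of CIH 1, 2 and 3 were then 63.4, 59.7 and 73.8 CPM. Control 1 and control 3 were then below all CIH libraries, and control 2 was still the highest. The exact binomial 95% interval of control 2 was 243 to 274 CPM, and the highest bound among the other libraries was 97.7 CPM in CIH 1. The intervals cover counting error only. The excess in control 2 is thus larger than counting error.

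The control group averaged 124 ± 117 CPM (SD, n = 3) and the CIH group 59.6 ± 18.0 CPM (SD, n = 3) for miR-130a-3p. The log2 fold change (CIH over control) was -1.06 with a standard error of 0.81, and its 95% interval ran from -2.997 to 0.875. The quasi-likelihood test of edgeR gave an adjusted p of 0.882, so the difference was within the spread between libraries. Without control 2 the log2 fold change was 0.12, with the opposite sign. Upper-quartile factors gave -1.86 and the replicate block -0.61. Without control 3 it was -1.48, with an adjusted p of 0.151 from the same test, and the adjusted p ran from 0.151 to 0.975 over its 15 alternative settings.

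Control 2 also held high levels of other miRNAs. miR-130a-3p was 5.07 times as high in control 2 as the median of the other 5 libraries. Among the 238 miRNAs counted at least 10 times in each library, 24 (10.1%), miR-130a-3p included, had a ratio at least as high in control 2. The median ratio was 1.33. In rank by raw count among the 707 miRNAs, miR-130a-3p was at 112 in control 2 and between 174 and 247 in the other libraries. Besides fat cell precursors, miR-130a is known from endothelial cells, where it represses the antiangiogenic homeobox genes Meox2 and Hoxa5. The cell makeup of the samples was not examined, because the marker miRNAs of other cell types are not identified among the accessions. In bulk tissue, fewer cells of a type and less of a miRNA per cell cannot be told apart.

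miR-130b-3p, the close paralog, was counted 17, 10 and 11 times in control 1, 2 and 3, and 6 times in each CIH library. The normalized levels were 21.6, 2.41 and 9.92 CPM in control 1, 2 and 3, against 4.82, 6.48 and 6.51 CPM under CIH. Control 1 and control 3 were above all CIH libraries and control 2 was below all of them, so the groups overlapped. The library with the highest miR-130a-3p was therefore the one with the lowest miR-130b-3p by value. Its exact 95% interval for miR-130b-3p, 1.16 to 4.44 CPM, overlapped those of all CIH libraries and not that of control 3. With 6 counts, the exact 95% interval of CIH 1 ran from 1.77 to 10.5 CPM, which holds the levels of both other CIH libraries and of control 2 and control 3. The interval of control 1, from 12.6 to 34.6 CPM, overlapped those of control 3, CIH 2 and CIH 3 and not those of control 2 and CIH 1.

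The control libraries averaged 11.3 ± 9.69 CPM (SD, n = 3) of miR-130b-3p and the CIH libraries averaged 5.94 ± 0.968 CPM (SD, n = 3). The spread of the CIH group, 16.3% of its mean, was below the 40.8% that counting error alone gives for a single value of 6 counts. The log2 fold change was -0.89 (standard error 0.91, 95% interval -3.07 to 1.30, adjusted p = 0.882 in the quasi-likelihood test of edgeR), again within the spread between libraries. Without control 1 it was 0.07 and without control 2 it was -1.33, so that 1 library turned its sign and another enlarged it. It was -1.46 with upper-quartile factors, -0.40 with library totals, -0.48 with the replicate block and -0.09 with limma voom. Without control 3 it was -0.90, and the adjusted p ran from 0.533 to 0.975 over its 15 alternative settings.

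miR-301a-3p, which is also known to target Nkrf, a repressor of NF-κB, was counted 3, 23 and 10 times in control 1, 2 and 3, and 10, 5 and 5 times in CIH 1, 2 and 3. The corresponding levels were 3.82, 5.55 and 9.01 CPM in the control libraries against 8.03, 5.40 and 5.42 CPM in the CIH libraries. The CIH values lay inside the range of the control values, and the exact 95% intervals of all 6 libraries overlapped. The interval of control 1, with 3 counts, ran from 0.787 to 11.2 CPM.

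The group means of miR-301a-3p were 6.13 ± 2.65 CPM (SD, n = 3) for control and 6.29 ± 1.51 CPM (SD, n = 3) for CIH. The log2 fold change was 0.04 (standard error 0.69, 95% interval -1.62 to 1.69, adjusted p = 0.988 in the quasi-likelihood test of edgeR). The interval allows from a 0.326-fold to a 3.23-fold level in the CIH group, so changes within these bounds are not excluded at this depth and spread. Its sign was negative with DESeq2, RLE or upper-quartile factors and without control 1 or CIH 1. Without control 3 the log2 fold change was 0.38.

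**Figure D1:**
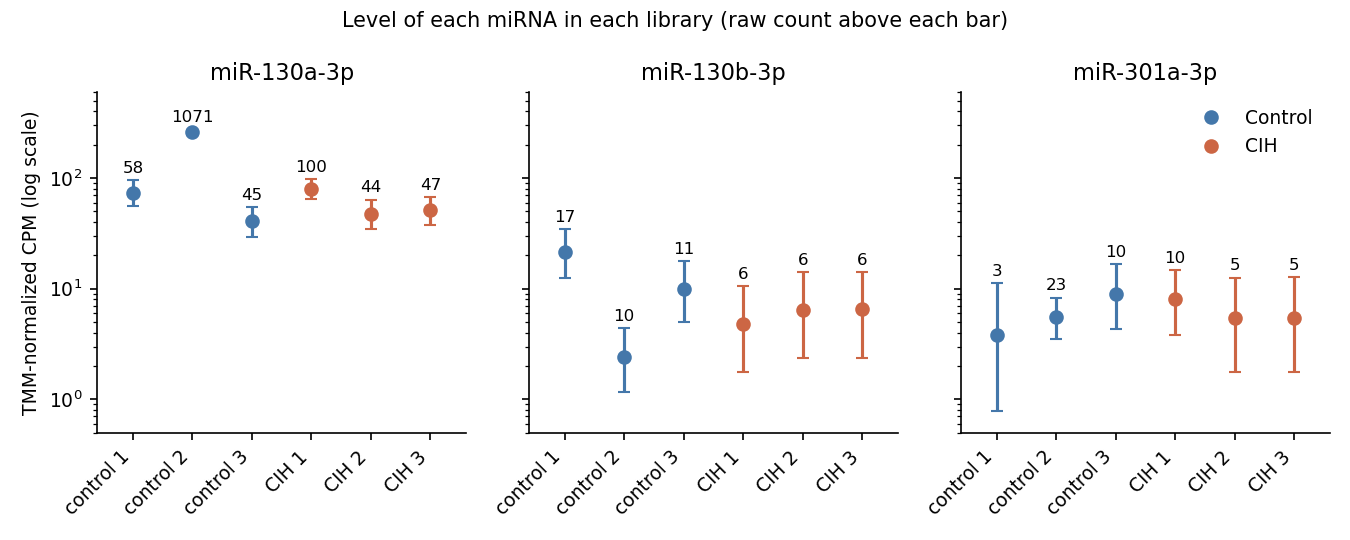
TMM-normalized CPM (log scale) of the 3 miRNAs in each library, with exact binomial 95% intervals for counting error and the raw count above each point. Control 2 reaches 258 CPM for miR-130a-3p and has the lowest miR-130b-3p at 2.41 CPM, and the CIH libraries lie within the range of the control libraries for all 3 miRNAs.

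0 of the 3 members had an adjusted p under 0.05 (edgeR's quasi-likelihood test), and 0 met the nominal criteria, an unadjusted p under 0.05 with a change of at least 1.5-fold. The level of 0.05 is that of the study's methods, which give no fold limit, and the limit of 1.5-fold was set here. Over the 633 miRNAs tested, 0 (0%) passed the adjusted threshold, and 16 (2.53%) had an unadjusted p under 0.05. The nominal criteria called 3 (0.474%) higher and 13 (2.05%) lower in the CIH group. The groups did not overlap in 51 miRNAs (8.06%), and they overlapped in all 3 members. The log2 fold changes of miR-130a-3p, miR-130b-3p and miR-301a-3p stood at percentiles 21.3, 24.2 and 49.0 of those tested, whose median was 0.07. Without control 3, 118 miRNAs (18.6%) passed the adjusted threshold and 238 (37.6%) met the nominal criteria, and still 0 of the 3 members did either. That fit sets control 1 and control 2, where the fewest miRNAs were detected, against the CIH libraries. Whether its calls reflect CIH was not tested.

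**Figure D2:**
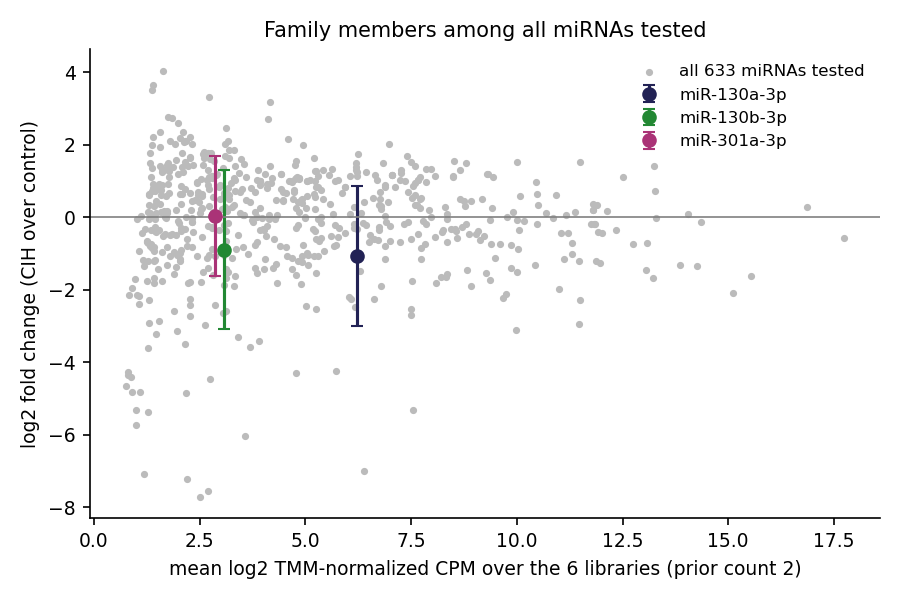
Log2 fold change (CIH over control) against mean log2 TMM-normalized CPM (prior count 2) for the 633 miRNAs tested (grey), with the 3 family members in colour and their 95% intervals. The interval of each member includes 0, and miR-130a-3p (-1.06) and miR-130b-3p (-0.89) lie below the median of 0.07.

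**Figure D3:**
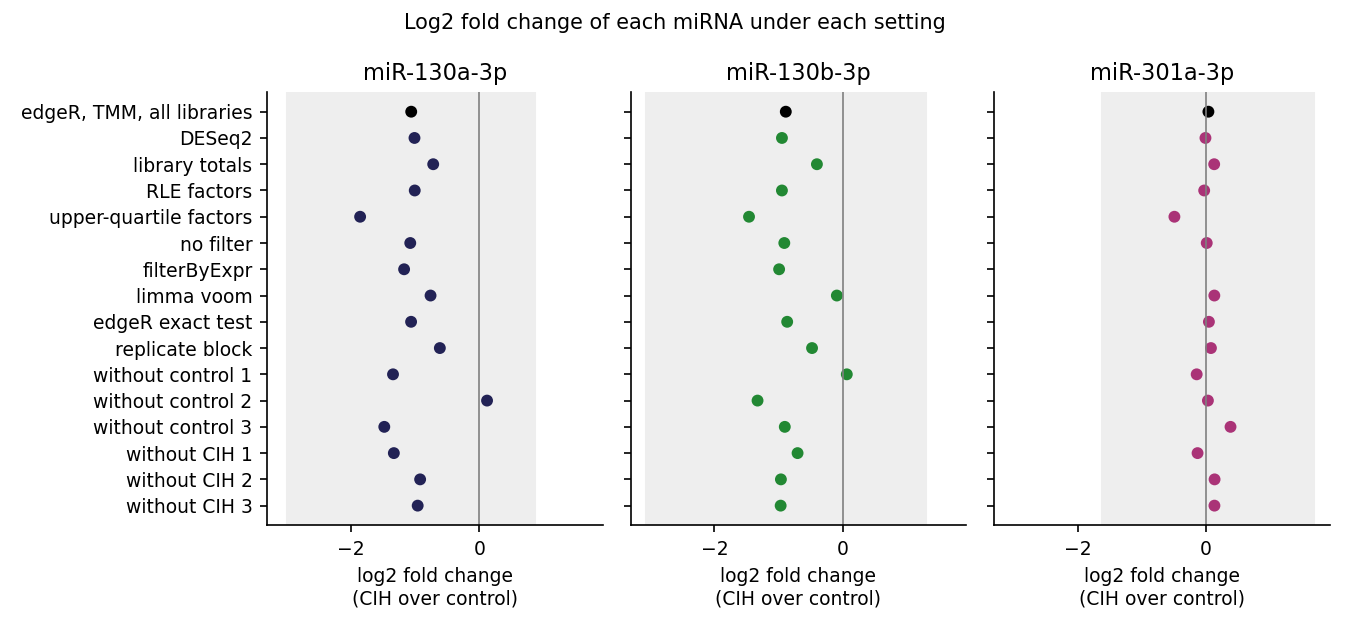
Log2 fold change (CIH over control) of the 3 miRNAs with the original settings (black point, grey band for its 95% interval) and under each alternative (coloured points), where filterByExpr did not retain miR-301a-3p. miR-130a-3p crosses 0 without control 2 (0.12), and miR-130b-3p crosses 0 without control 1 (0.07).

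The members' relative amounts within a library do not depend on how the libraries are scaled, and they were compared as ratios of raw counts. Ligation and amplification favour some small RNAs over others, so a ratio is not a ratio of molecules, and only its change between libraries is compared. miR-130a-3p exceeded miR-130b-3p by 3.41, 107 and 4.09 times in control 1, 2 and 3, and by 16.7, 7.33 and 7.83 times in CIH 1, 2 and 3. The control libraries lay on both sides of the CIH libraries, because control 2 was the highest and control 1 and control 3 were the lowest. The exact 95% interval of control 2 was 58.0 to 224, above those of all 5 other libraries. The interval of control 1, 1.96 to 6.25, did not overlap that of CIH 1, 7.39 to 46.5, and overlapped those of CIH 2 and CIH 3.

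The log2 ratio of miR-130a-3p over miR-130b-3p, with 0.5 counts added to each, averaged 3.47 ± 2.78 (SD, n = 3) for control and 3.20 ± 0.65 (SD, n = 3) for CIH. The difference was -0.27 (two-sided exact permutation test, p = 1, adjusted p = 1 over 3 ratios), where the smallest p that 3 libraries against 3 allow is 0.1. Without control 2 the difference was 1.34, and all 3 CIH libraries were above control 1 and control 3 (same exact permutation test, p = 0.2, the smallest that 2 against 3 allow, and adjusted p = 0.6). Over the 7 alternatives of this ratio the adjusted p ran from 0.6 to 1. Without control 3 the difference was -1.01.

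The ratio of miR-130a-3p over miR-301a-3p was 19.3, 46.6 and 4.50 in control 1, 2 and 3, and 10, 8.80 and 9.40 in CIH 1, 2 and 3. The CIH libraries were close to each other, with a log2 ratio of 3.13 ± 0.12 (SD, n = 3), and the control libraries spread to both sides of them, with 3.90 ± 1.70 (SD, n = 3). The ratios of CIH 1, 2 and 3 rest on 10, 5 and 5 counts of miR-301a-3p. Their exact 95% intervals, 5.22 to 21.5, 3.50 to 28.4 and 3.755 to 30.3, are far wider than the distances between them. The difference was -0.77 (two-sided exact permutation test, p = 0.6, adjusted p = 1 over 3 ratios). Without control 3, the difference was -1.66 and both other control libraries were above all CIH libraries (same exact permutation test, p = 0.2, the smallest possible, and adjusted p = 0.6 in a range of 0.6 to 1 over the 7 alternatives). Without control 2 it was 0.04. The exact 95% interval of control 1, 6.30 to 96.5, rests on 3 counts of miR-301a-3p and overlapped those of all CIH libraries. That of control 2, 30.87 to 73.8, lay above those of all CIH libraries.

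miR-301a-3p over miR-130b-3p, the pair of low members, had ratios of 0.176, 2.30 and 0.909 in control 1, 2 and 3, against 1.67, 0.833 and 0.833 under CIH. The interval of control 1, which rests on 3 counts against 17, was 0.0331 to 0.610, and that of control 2 was 1.05 to 5.41. Both leave out a ratio of 1 and lie on opposite sides of it. The difference in log2 ratio was 0.50 (two-sided exact permutation test, p = 0.9, adjusted p = 1 over 3 ratios). It was -0.45 without control 1 and 0.65 without control 3.

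**Figure D4:**
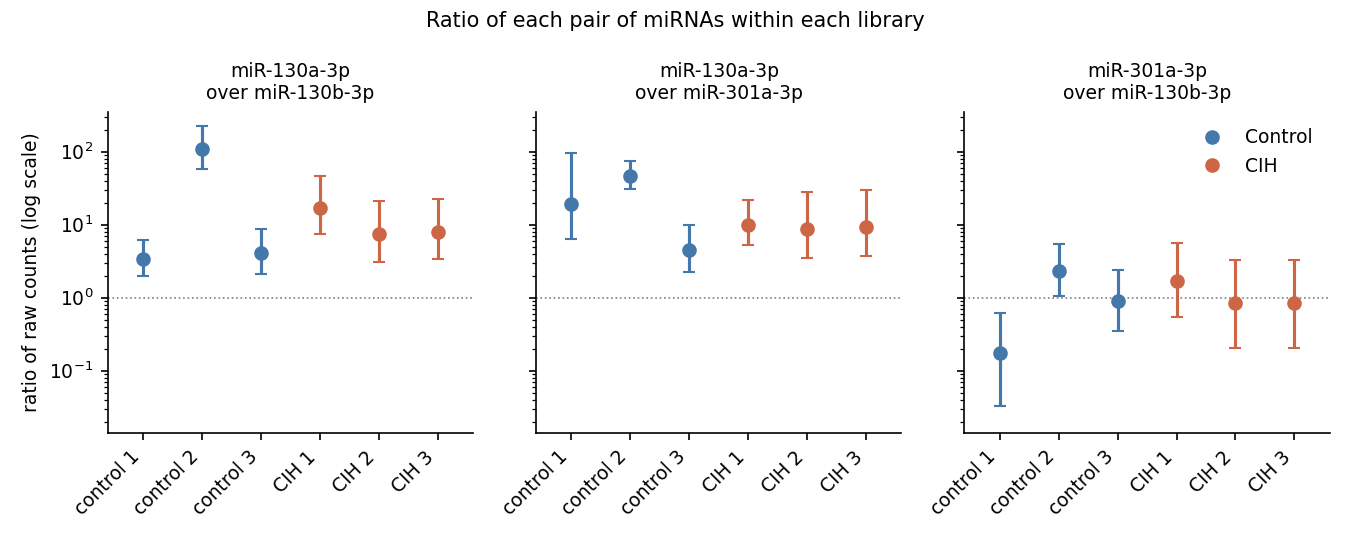
Ratio of raw counts (log scale) for each pair of the 3 miRNAs in each library, with exact 95% intervals for counting error and a dotted line at 1. The CIH libraries lie between 7.33 and 16.7 for miR-130a-3p over miR-130b-3p and between 8.80 and 10 for miR-130a-3p over miR-301a-3p, inside the range of the control libraries in both.

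As shares of the summed counts of the 3 members, miR-130a-3p took 74.4%, 97.0% and 68.2% in control 1, 2 and 3, and 86.2%, 80.0% and 81.0% in CIH 1, 2 and 3. The exact binomial 95% interval was 95.8% to 97.9% in control 2, with 1104 summed counts, and 63.2% to 83.6% in control 1, with 78. The mean share differed by 2.56 percentage points between the groups, 82.4% ± 3.33 (SD, n = 3) in the CIH group against 79.9% ± 15.2 (SD, n = 3) in the control group (two-sided exact permutation test, p = 0.8, adjusted p = 0.8 over 3 shares). The share of miR-130b-3p was 21.8%, 0.906% and 16.7% in control 1, 2 and 3, against 5.17%, 10.9% and 10.3% under CIH. The share of miR-301a-3p was 3.85%, 2.08% and 15.2% in control 1, 2 and 3, and between 8.62% and 9.09% in all CIH libraries. The exact intervals of these CIH shares were far wider, 4.21% to 15.3%, 3.02% to 19.95% and 2.86% to 18.98% in CIH 1, 2 and 3. The mean shares of miR-130b-3p and miR-301a-3p differed by -4.31 and 1.75 percentage points (CIH minus control), with a p of 0.5 and 0.7 in the same exact permutation test. Without control 2, the difference was 11.1 percentage points for miR-130a-3p, with all CIH libraries above control 1 and control 3, and -10.4 percentage points for miR-130b-3p, with all CIH libraries below them (same exact permutation test, p = 0.2 for each, the smallest possible, and adjusted p = 0.3 over 3 shares). Over the 7 alternatives the adjusted p ran from 0.3 to 1 for both. Without control 3, the 3 differences were -3.27, -2.54 and 5.81 percentage points for miR-130a-3p, miR-130b-3p and miR-301a-3p.

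Summed over the 3 members, the family had 99.3, 266 and 59.5 CPM in control 1, 2 and 3, and 93.2, 59.4 and 62.9 CPM in CIH 1, 2 and 3. The sum follows miR-130a-3p, and control 2 was again above the other 5 libraries, which overlapped.

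The pattern of each member over the 6 libraries was compared with that of the miRNAs counted at least 10 times in each library. Pearson's r of log2 TMM-normalized CPM was used, as a description. The miRNA most like miR-130a-3p was MIMAT0000148 (r = 0.991, and 0.974 without control 2), which was counted 35, 589 and 22 times in control 1, 2 and 3 against 61, 28 and 27 times under CIH. For miR-130a-3p, 23 of 237 miRNAs had an r over 0.9. The miRNA most like miR-130b-3p was MIMAT0000649 (r = 0.966), and 2 of 238 had an r over 0.9. The miRNA most like miR-301a-3p was MIMAT0000210 (r = 0.906), the only miRNA of 238 above 0.9. All of these points share the same 6 libraries and their depth, and no name is paired with these accessions in the files. Between the members themselves, r was -0.565 for miR-130a-3p with miR-130b-3p and 0.132 without control 2. For miR-301a-3p, r was -0.23 with miR-130a-3p and -0.347 with miR-130b-3p.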

How the data were processed

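Small RNA libraries from mouse WAT, 3 control and 3 CIH, were analysed. The authors deposited raw read counts per mature miRNA, without normalization. Trimming, aligner, miRNA database release and the treatment of reads matching more than a single miRNA are not given in the sources used here. Such treatment could move reads between miRNAs with the same seed. The names of the 3 members come with their accessions, and the family and its lists were chosen with earlier results of these data known. A total of at least 10 counts across libraries was required, and the 633 miRNAs that reached it went into a quasi-likelihood test in edgeR 4.0.16 (R 4.3.3) after TMM, with no term but the group and Benjamini-Hochberg adjustment over all of them, after a trial on simulated data. Standard errors were derived from the F statistic. Python 3.11.15 with scipy 1.17.1 gave exact binomial intervals, ratios and permutation tests, with 0.5 counts added in log2 ratios. The alternatives were DESeq2 1.42.0, limma 3.58.1 with voom, other factors and filters, edgeR's exact test, the replicate number as a block and each library left out. Named miRNAs were to be the members, their relatives and other arms, the 3 with the most similar pattern to each member, and adipogenesis and marker lists. The files do not pair other accessions with names, so those lists and relatives are not analysed here, and 1 similar miRNA per member is given by accession. The library totals lay between 636963 and 4783768 counts, so that 1 count was the largest share of the total in CIH 3.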

Additional observations from a re-analysis of the deposited data

How the results depend on the processing

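The adjusted p of each member stayed above 0.05 in every setting that tested it (47 fits over 16 settings, 0 under the threshold), and the filterByExpr filter did not retain miR-301a-3p. The log2 fold change of miR-301a-3p reversed to -0.0086 with DESeq2, -0.0285 with RLE factors and -0.49 with upper-quartile factors, which also moved the median of all miRNAs from 0.07 to -0.52. miR-130a-3p and miR-130b-3p stayed negative under all 3 other scalings and DESeq2. With library totals that median was 0.33, and with limma voom 0.37. With each library left out, the log2 fold change ran from -1.48 to 0.12 for miR-130a-3p (reversed without control 2), from -1.33 to 0.0651 for miR-130b-3p (reversed without control 1) and from -0.15 to 0.38 for miR-301a-3p (reversed without control 1, -0.15, and without CIH 1, -0.13). The differences in log2 ratio ran from -1.13 to 1.34 for miR-130a-3p over miR-130b-3p (reversed without control 2, 1.34), from -1.66 to 0.0392 for miR-130a-3p over miR-301a-3p (reversed without control 2) and from -0.45 to 1.30 for miR-301a-3p over miR-130b-3p (reversed without control 1, -0.45). The differences in share ran from -3.27 to 11.1 percentage points for miR-130a-3p (11.1 without control 2, reversed without control 1, -0.18, and without control 3, -3.27), from -10.4 to 0.0226 for miR-130b-3p (-10.4 without control 2, reversed without control 1) and from -0.72 to 5.81 for miR-301a-3p (reversed without control 2, -0.72). Adding 1 count to each member, in place of 0.5 in the ratios and of none in the shares, reversed none of these. The cause was not tested.

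The number of miRNAs by the nominal criteria was 16, and 26 with DESeq2, 39 with upper-quartile factors, 8 with filterByExpr, 75 with limma voom, 29 with edgeR's exact test and 1 to 238 with each library left out (1 without CIH 3, 6 without CIH 1 or CIH 2, 238 without control 3). The number with an adjusted p under 0.05 lay between 0 and 118 when each library was left out, where 118 came without control 3. Same-numbered libraries deviated from their group means with correlations of 0.353, -0.116 and 0.0195, and the labels name no shared mouse, litter or day, so the numbering was not taken as a pairing. In the fit with a replicate block, 3 miRNAs met the nominal criteria, and the log2 fold changes were -0.61 for miR-130a-3p, -0.48 for miR-130b-3p and 0.08 for miR-301a-3p. Same-seed relatives and other arms were not run. Counts in single digits limit miR-130b-3p in the CIH libraries and miR-301a-3p in control 1, CIH 2 and CIH 3.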
